A study of Triticum aestivum with 18 samples.

Results

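Flag leaves of wheat (Triticum aestivum) whose plants had lost 0.5 of the spike, here called partial removal, were compared with flag leaves of control plants that grew normally. The comparison took in every locus that carried a gene name and had an FPKM (sequenced fragments per kilobase of a transcript, adjusted for the size of the library, the unit of the deposited table) of at least 1 in at least 3 of these 6 libraries. That rule kept 35649 of 97029 named loci, out of 115478 loci in all. Sampling was at the grain filling stage, and each group had 3 libraries of poly(A) RNA sequenced in pairs of reads. Flag leaves after removal of the whole spike (3 libraries), and grains after partial removal and of control plants (3 libraries each), were used beside them, out of 18 libraries in the series. The labels give no cultivar and no interval between cutting and sampling. No leaf group was cut without losing spike, so the wound and the lost demand of the grains cannot be told apart. Nothing in the labels ties the 3 libraries of a group to separate plants, and p-values therefore measure only the spread between these samples.

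The flag leaf is the main source of sugar for the growing wheat grain. Carbon fixed in its chloroplasts is kept for a time as starch or leaves the cytosol as sucrose, which sucrose-phosphate synthase commits to synthesis and transporters load into the phloem. Removing grains lowers the demand on this export while the leaf stays in the light.

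Of the 35649 named loci, 27776 reached an FPKM of 1 in all 6 libraries. A further 907 passed without any partial removal library at 1, and 41 without any control library at 1, so these had to differ. The 2264 loci with exactly 3 libraries at 1 had a median FPKM of 1.06, and the 2467 named loci just outside, with 2 such libraries, had one of 0.879. A usable description was given for 6811 loci, 17214 had gene ontology (GO) terms and no description, and 11528 had neither. Below, levels are FPKM scaled between libraries by median ratios. Log2 differences are partial removal minus control on log2(scaled FPKM + 1), with the moderated SE, and understate the change of low loci. Arms such as 4AL come from the gene names. Reads of the A, B and D copies of a gene can be assigned to one another, which makes the arm of any 1 copy uncertain.

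Partial removal libraries held less of their signal on named loci. Loci without a gene name took 29.7% ± 3.84 of the FPKM sum after partial removal and 15.9% ± 3.30 in controls (SD, n = 3 each). Plastid and mitochondrial rRNA took 7.68% ± 1.88 after partial removal and 1.95% ± 1.14 in controls. Without scaling the median of all tested loci was -0.23, so directions below are relative to the median locus. A list of leaf mesophyll genes (light harvesting proteins and Rubisco small chains, 52 loci here) took 0.897% after partial removal and 0.864% in controls, against 0.00350% in control grains. Grain storage proteins had no locus among those compared and were listed at 0 in all 3 partial removal libraries, while control libraries 1, 2 and 3 had 0%, 0.0102% and 0.0145%. The part of these shares in the results was not tested. In whole leaves, fewer cells of a type and less RNA per cell cannot be told apart.

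After partial removal of the spike, fewer named transcripts were called higher than lower. By limma with Benjamini-Hochberg adjustment over the 48696 loci tested in leaf, 286 of the 35649 named loci (0.802%) passed an adjusted p of 0.05. Of these, 57 were higher (0.160%) and 229 lower (0.642%) after partial removal. Without scaling the split was 38 higher and 1224 lower. On log2(scaled FPKM + 1), a difference of at least 1 in size was reached by 41 of the higher and 113 of the lower. Low loci can pass 2-fold in FPKM and still miss this mark. MSTRG.451, with 0.718 after partial removal and 2.17 in controls, had log2 -0.89. The unnamed loci went the other way, with 473 of 10511 higher and 32 lower, so that of all 48696 loci tested 1.63% were called, 1.09% higher and 0.536% lower. In all 286 the groups did not overlap, which held for 21.3% of the named loci altogether (10.0% higher, 11.2% lower). The loci called lower had a median of 1.09 after partial removal and 3.29 in controls. Those called higher had a median of 5.55 after partial removal and 1.32 in controls. Of the loci called lower, 97 had no partial removal library at an FPKM of 1, and of those called higher 17 had no control library at 1, so they entered the comparison only through the group where they are high. Only 52 of the 286 had a description, 46 of them lower, and 94 had neither a description nor a GO or KEGG term. Without partial removal library 3 there were 90 calls, 77 of them among the 286, and without control library 3 there were 287, with 190 of the 286. Fits of the 6 compared libraries alone, of the named loci alone and without the filter on low values, here called the 3 other fits, gave 118, 130 and 109 calls. With each of the 6 libraries left out in turn, 61 of the 286 calls (51 lower, 10 higher) were kept throughout.

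**Figure D1:**
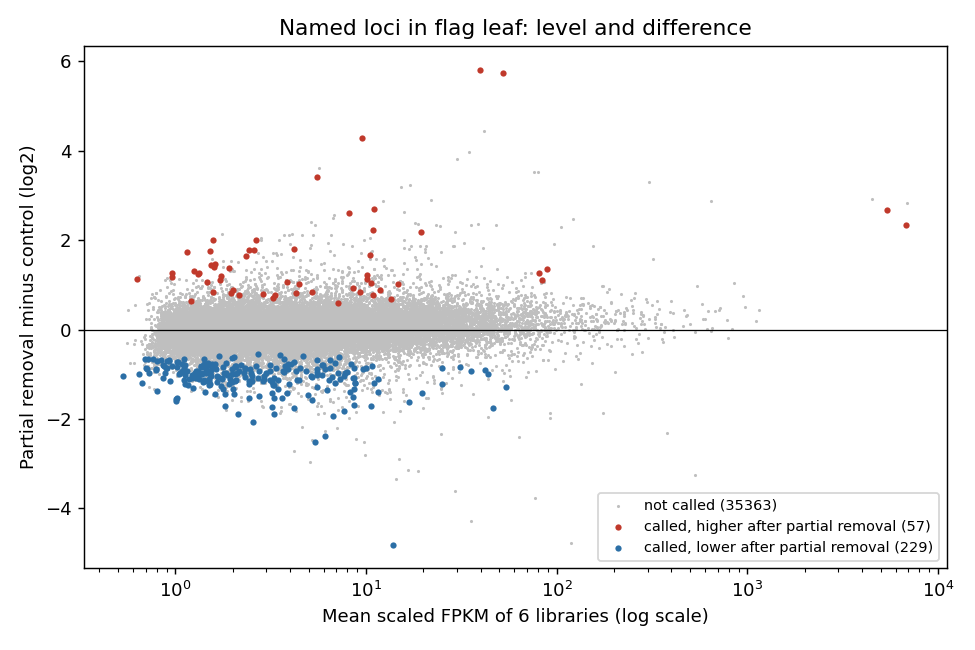
Each point is a named locus of the flag leaf, with its mean scaled FPKM over 6 libraries on a log scale across and its log2 difference, partial removal minus control, upwards. Red points (57) were called higher and blue points (229) lower. Most blue points lie at levels of a few FPKM, and the highest red points are organelle rRNA.

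Sucrose-phosphate synthase 4, of the family that commits carbon to sucrose, had all 3 of its copies below the controls, and 2 of them passed the test as lower. The copy on 4AL (MSTRG.35971) had 4.90, 8.85 and 10.1 scaled FPKM after partial removal and 23.2, 29.8 and 24.4 in controls (log2 -1.63 ± 0.27, adjusted p = 0.021). Its 4DS copy (MSTRG.42906) had 11.4, 17.1 and 16.0 after partial removal and 34.8, 42.0 and 29.8 in controls (log2 -1.21 ± 0.22, adjusted p = 0.0331). For the third, on 4BS (MSTRG.39324), the values were 10.4, 17.2 and 18.2 after partial removal and 35.9, 41.7 and 30.7 in controls, and it missed the threshold (log2 -1.21 ± 0.28, adjusted p = 0.0806). Every control library lay above every partial removal library in the 3 copies. Both calls were lost without control library 1 or 2 or partial removal library 2, and that of 4DS also without partial removal library 1 or 3 (adjusted p up to 0.0853 for 4AL and 0.122 for 4DS). Both were also lost in the 3 other fits.

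Raffinose synthesis adds galactose units to sucrose. All 6 loci of the raffinose list lay below 0, with and without scaling, and 2 were called lower, both described as galactinol-sucrose galactosyltransferase 6. MSTRG.77407, with no chromosome in its name, had 1.78, 1.53 and 0.871 after partial removal and 6.95, 7.76 and 6.20 in controls (log2 -1.75 ± 0.16, adjusted p = 0.00489). MSTRG.70573 on 7BS had 2.43, 2.34 and 1.23 after partial removal and 6.09, 6.41 and 5.08 in controls (log2 -1.22 ± 0.18, adjusted p = 0.0139). The groups stand wide apart in both. The 7BS call was lost without control library 1 or 2 (adjusted p up to 0.0629) or with the 6 libraries alone, and the other was kept with each library left out. A copy on 7DS (MSTRG.74404) had log2 -1.26 ± 0.35 and an adjusted p of 0.159.

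The trehalose pathway makes the sugar signal trehalose 6-phosphate, which reports the sucrose level in plant cells. Among 19 loci with a GO term for trehalose synthesis, 2 were called lower and none higher, and the median log2 difference was -0.26. This GO set was chosen after its values were seen. The trehalose list drawn from descriptions (6 loci) had no call and a median of -0.19. Both called loci belong to a set on the long arms of group 6 chromosomes. The 6BL locus (MSTRG.58468) had 4.28, 5.73 and 4.72 after partial removal and 10.6, 11.7 and 15.8 in controls (log2 -1.20 ± 0.17, adjusted p = 0.0131). The 6AL locus (MSTRG.55345) had 2.93, 4.50 and 5.37 after partial removal and 8.16, 12.3 and 10.4 in controls (log2 -1.11 ± 0.20, adjusted p = 0.0319). At 6DL (MSTRG.62250) the difference was -1.08 ± 0.24 with an adjusted p of 0.0764. None of these 3 loci overlapped between groups. The call at 6BL was lost without partial removal library 3 (adjusted p = 0.0595), and that at 6AL with any 1 of the 6 libraries left out (adjusted p up to 0.116). The first was also lost with the 6 libraries alone and the second in the 3 other fits.

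**Figure D2:**
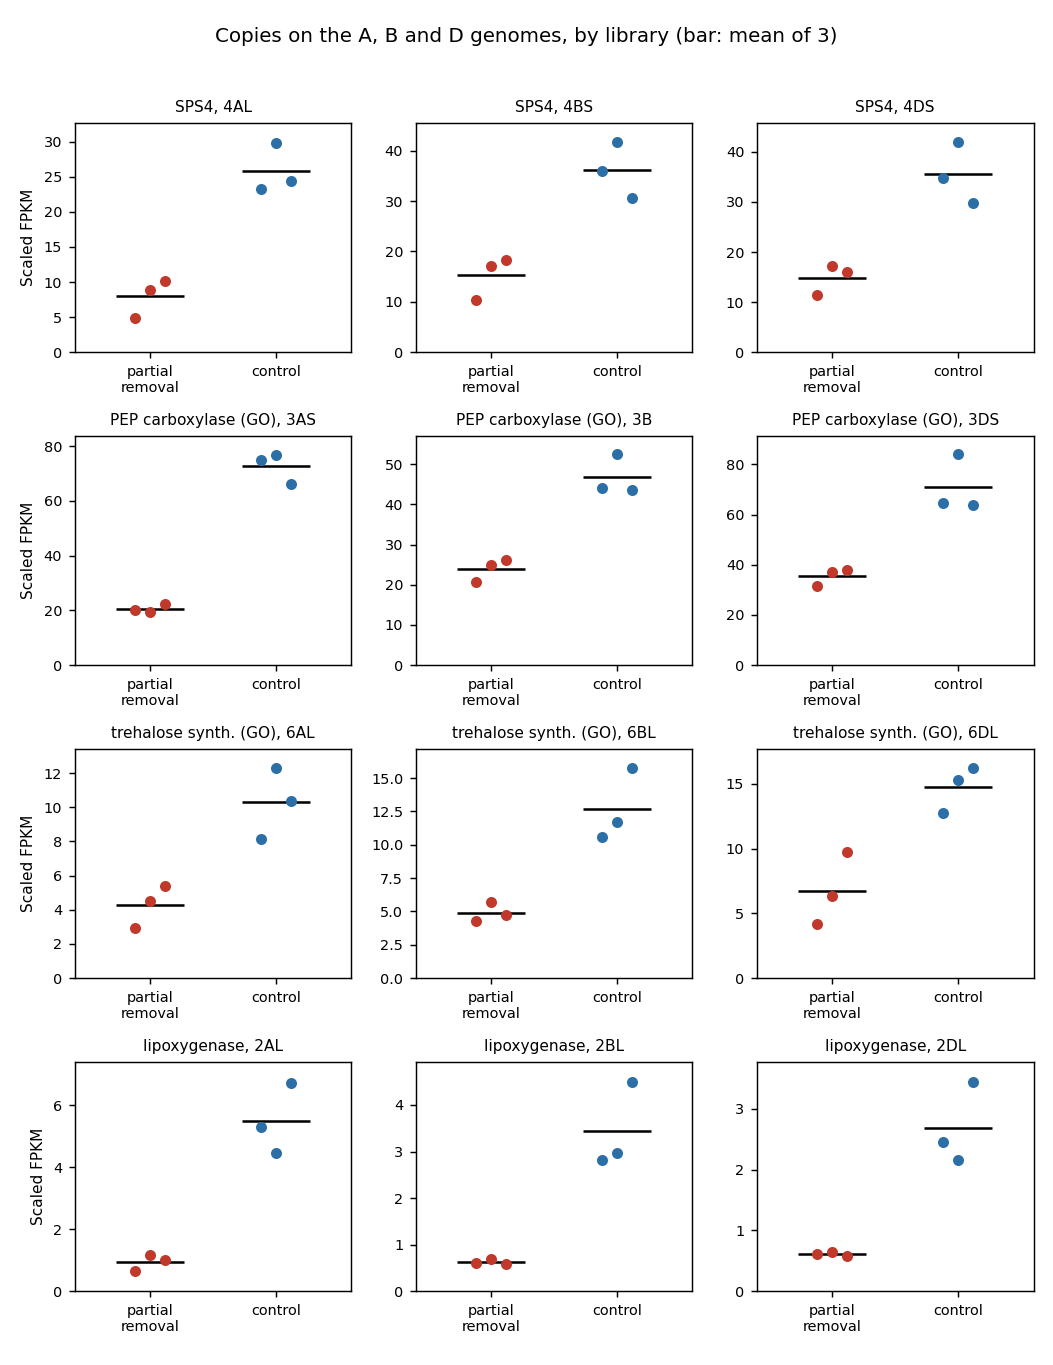
Scaled FPKM of each library (points) and the group mean (bar) for copies of 4 genes on the A, B and D genomes, partial removal left and control right. In all 12 panels every control library lies above every partial removal library.

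Sugar cleavage and transport, a list of 43 loci with invertases, sucrose synthases, SUT and SWEET carriers, had no call in either direction, with 32 loci below 0 and a median log2 of -0.19. Of this list the sucrose transporter SUT1A, which loads sucrose into the phloem, had the smallest p. SUT1A on 4AS (MSTRG.37079) had 6.02, 6.60 and 8.13 after partial removal and 15.7, 9.55 and 14.0 in controls (log2 -0.81 ± 0.19, adjusted p = 0.0901). Starch synthesis (28 loci) also had no call, but 22 of its loci lay above 0. Of the 28, 17 stood above all controls, as did 10.0% of all named loci. The median log2 was 0.35 and stayed above 0 without scaling (0.05). Granule-bound starch synthase 1 on 2BL (MSTRG.16345), which makes amylose, had 6.61 ± 0.642 after partial removal and 3.25 ± 0.738 in controls (SD, n = 3 each, log2 0.85 ± 0.19, adjusted p = 0.0764). Starch breakdown (41 loci) had no call and a median of 0.14, which turned to -0.13 without scaling. The 4 fructan loci had no call.

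Phosphoenolpyruvate carboxylase fixes bicarbonate into oxaloacetate and feeds organic acids and amino acid skeletons. Of 11 loci with this GO term, 2 were called lower and none higher. The locus on 3AS (MSTRG.24984) had 20.2, 19.4 and 22.4 after partial removal and 74.8, 76.7 and 66.3 in controls (log2 -1.76 ± 0.17, adjusted p = 0.00489). Its controls were thus more than 2-fold above all partial removal libraries, and the call was kept with each library left out. The 3B locus (MSTRG.29483) had 20.8, 25.02 and 26.2 after partial removal and 44.2, 52.6 and 43.5 in controls (log2 -0.94 ± 0.17, adjusted p = 0.034). That call was lost without control library 1 or 2 or any partial removal library (adjusted p up to 0.129), and in the 3 other fits. The 3DS locus (MSTRG.33048) had 35.5 ± 3.56 after partial removal and 70.9 ± 11.5 in controls (SD, n = 3 each, adjusted p = 0.0906). The other loci lay on both sides of 0. Loci on group 7 (MSTRG.66045, MSTRG.68230 and MSTRG.71464) had log2 values of -0.85, -0.91 and -1.29, and those on group 5 (MSTRG.44427, MSTRG.49955 and MSTRG.52040) had 0.31, 0.27 and 0.47, none of which passed.

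Malate synthase, a glyoxylate cycle enzyme that works with the breakdown of fatty acids, was called lower in its 2BL copy. MSTRG.16081 had 3.05, 2.60 and 0.917 after partial removal and 5.87, 8.98 and 9.72 in controls (log2 -1.57 ± 0.28, adjusted p = 0.0296). The 2AL copy (MSTRG.12552) had log2 -1.85 ± 0.46 with an adjusted p of 0.111, and the 2DL copy (MSTRG.19905) had -1.21 ± 0.38 with one of 0.227. Long-chain-alcohol oxidase, which oxidises fatty alcohols, was called lower on 1AL and 1BL. On 1AL (MSTRG.274) the values were 1.13, 3.23 and 2.60 after partial removal and 10.3, 11.9 and 11.1 in controls (log2 -1.92 ± 0.23, adjusted p = 0.00776). On 1BL (MSTRG.3732) they were 2.69, 3.51 and 2.32 after partial removal and 10.7, 13.4 and 13.6 in controls (log2 -1.83 ± 0.25, adjusted p = 0.0108). The 1DL copy (MSTRG.8639) overlapped between the groups and had an adjusted p of 0.607. These 3 calls were the only ones in a list of 31 loci of the glyoxylate cycle and fatty acid breakdown, whose median was 0.03 and turned to -0.26 without scaling. The malate synthase call was lost without control library 1, 2 or 3 or partial removal library 2 or 3 (adjusted p up to 0.111), with a pseudocount of 0.1 and in the 3 other fits. The 1BL call of the oxidase was lost without partial removal library 3 (adjusted p = 0.0515).

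Nitrogen assimilation (19 loci) had no call and a median log2 of -0.37. Nitrate reductase on 6DS (MSTRG.64103), which starts nitrate assimilation, had 15.8, 17.1 and 19.4 after partial removal and 43.3, 39.2 and 25.9 in controls (log2 -0.98 ± 0.21, adjusted p = 0.0651). Nitrogen transport (17 loci) had no call either. There the nitrate or peptide transporter NRT1/ PTR FAMILY 3.1 on 7DS (MSTRG.73830) came closest, with 6.64 ± 0.456 after partial removal and 11.1 ± 1.49 in controls (SD, n = 3 each, adjusted p = 0.0517). The groups did not overlap at either locus.

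Lipoxygenases add oxygen to polyunsaturated fatty acids, and some of them start jasmonate synthesis. All 16 lipoxygenase loci lay below 0, also without scaling and with quantile normalization, and 5 of them were called lower. Of the 5, those on 2BL and 2DL had no partial removal library at an FPKM of 1 and entered only through the controls. The groups did not overlap in 13 of the 16, against 21.3% of all named loci (11.2% lower). The 3 copies on the long arms of group 2 fell together. On 2AL (MSTRG.11562) the values were 0.659, 1.18 and 0.999 after partial removal and 5.28, 4.46 and 6.73 in controls (log2 -1.73 ± 0.16, adjusted p = 0.00444). On 2BL (MSTRG.16752) they were 0.609, 0.680 and 0.573 after partial removal and 2.83, 2.98 and 4.49 in controls (log2 -1.43 ± 0.15, adjusted p = 0.00588). On 2DL (MSTRG.19943) they were 0.610, 0.646 and 0.577 after partial removal and 2.45, 2.16 and 3.45 in controls (log2 -1.18 ± 0.15, adjusted p = 0.0095). The partial removal libraries of these copies lay near or under an FPKM of 1, and every control lay above 2. The other calls were on 7AS (MSTRG.67262, log2 -1.10 ± 0.11, adjusted p = 0.00489) and 1DL (MSTRG.8761, log2 -0.73 ± 0.14, adjusted p = 0.0343). Leaving out single libraries ended none of these calls but that on 1DL, which was lost without control library 1 or 2 or any partial removal library (adjusted p up to 0.127) and in the 3 other fits. The jasmonate loci beside the lipoxygenases had no call.

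Loci with a description that were called higher numbered 6, 4 of which are described here. Of 1680 loci with a GO term for chloroplast, 4 were called higher and 7 lower (0.655% called, against 0.802% of all named loci). Thioredoxin F, which switches on Calvin cycle enzymes in the light, had 142, 104 and 98.5 after partial removal and 45.9, 57.1 and 53.5 in controls (MSTRG.26631 on 3B, log2 1.11 ± 0.22, adjusted p = 0.0491). Psb28, a protein of photosystem II assembly, had 16.3, 14.4 and 16.4 after partial removal and 7.63, 9.56 and 7.17 in controls at its 5BL locus (MSTRG.49979, log2 0.88 ± 0.17, adjusted p = 0.0404). Chloroplast glycerol-3-phosphate acyltransferase, the first acylation step of plastid lipids, had 10.3, 11.9 and 12.3 after partial removal and 6.26, 5.45 and 5.06 in controls at 1DL (MSTRG.9046, log2 0.93 ± 0.18, adjusted p = 0.0375). No control library reached a partial removal library at these loci. Cu-Zn superoxide dismutase 3 on 4AS (MSTRG.36628), which removes superoxide, averaged 13.9 after partial removal and 7.78 in controls (log2 0.77 ± 0.13, adjusted p = 0.022). Copies of Psb28, of the acyltransferase and of the dismutase on other chromosomes lay above 0 and did not pass, and without scaling MSTRG.22964 of Psb28 and MSTRG.38714 of the dismutase lay below 0. Without scaling all 4 calls were lost. The first 3 were also lost with any 1 of the 6 libraries left out (adjusted p up to 0.172), and the dismutase with any 1 but control library 3 left out (adjusted p up to 0.0986). In the 3 other fits the first 3 calls were lost too, and thioredoxin F also with quantile normalization or a pseudocount of 0.1, while the dismutase was lost with the 6 libraries alone.

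A locus on 6AL with a GO term for glycine decarboxylation (MSTRG.55470), the mitochondrial step of photorespiration, had 105, 132 and 148 after partial removal and 37.8, 66.3 and 46.5 in controls (log2 1.36 ± 0.26, adjusted p = 0.038). Its counterpart on 6DL (MSTRG.62385) had 111 ± 34.6 after partial removal and 54.3 ± 22.5 in controls (SD, n = 3 each) and did not pass (adjusted p = 0.35). A peptidase locus on 3DL (MSTRG.30555) had 117, 107 and 115 after partial removal and 58.9, 52.0 and 32.8 in controls (log2 1.26 ± 0.24, adjusted p = 0.0391). Partial removal was above every control in both called loci. Both calls were lost without scaling, with quantile normalization and without control library 1 or any partial removal library, that on 6AL also without control library 3 and that on 3DL without control library 2 (adjusted p up to 0.145 and 0.137). Neither passed in the 3 other fits.

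Medians of the photosynthesis gene lists lay above 0, almost without calls. Light harvesting proteins had 31 of 33 loci above 0, a median log2 of 0.50 (0.21 without scaling) and no call. Chlorophyll synthesis had 40 of 42 above 0, a median of 0.26 (0.01 without scaling) and no call. The Calvin cycle had 21 of 23 above 0 and no call, with a median of 0.33 that turned to -0.19 with quantile normalization. Summed levels of this list overlapped, with 1775.4, 3616.9 and 5500.8 after partial removal and 2368.6, 3780.5 and 1283.5 in controls. Photosystems and electron transport had 1 call higher among 80 loci, Psb28, with 56 loci above 0 and 24 below. The median of 0.27 turned to -0.01 without scaling and fell to 0.02 with quantile normalization. Thioredoxins and related redox proteins had 1 call higher among 36, thioredoxin F, with 29 loci above 0 and 7 below. Their median of 0.24 turned to -0.05 without scaling and fell to 0.02 with quantile normalization. The spread between libraries was wide here, as in a chlorophyll a-b binding protein (MSTRG.76614) with 18.0, 27.9 and 27.8 after partial removal and 3.46, 14.0 and 4.32 in controls, where the adjusted p was 0.256. Over all named loci the median was 0.01. The groups did not overlap at 5 of the 33 light harvesting loci, 9 of the 42 of chlorophyll synthesis and 0 of the 23 of the Calvin cycle. The same held for 16 of the 80 photosystem loci and 8 of the 36 redox loci. In each of these, partial removal was higher. Of all named loci 21.3% did not overlap (10.0% higher). In the other direction, loci with a GO term for chlorophyllide a oxygenase were called lower on 6AL (MSTRG.55704, log2 -1.72 ± 0.35, adjusted p = 0.0491) and 7AS (MSTRG.67349, log2 -1.29 ± 0.21, adjusted p = 0.0204). The second had 38.0, 28.8 and 26.6 after partial removal and 65.8, 74.6 and 91.5 in controls. Each was lost without control library 1 or 2 or partial removal library 2 or 3, and that on 6AL also without partial removal library 1 (adjusted p up to 0.17 and 0.0932). The 6AL call was also lost in the 3 other fits, with quantile normalization, with a pseudocount of 0.1 and with scaling on all loci, and the 7AS call with the 6 libraries alone or no filter on low values.

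**Figure D3:**
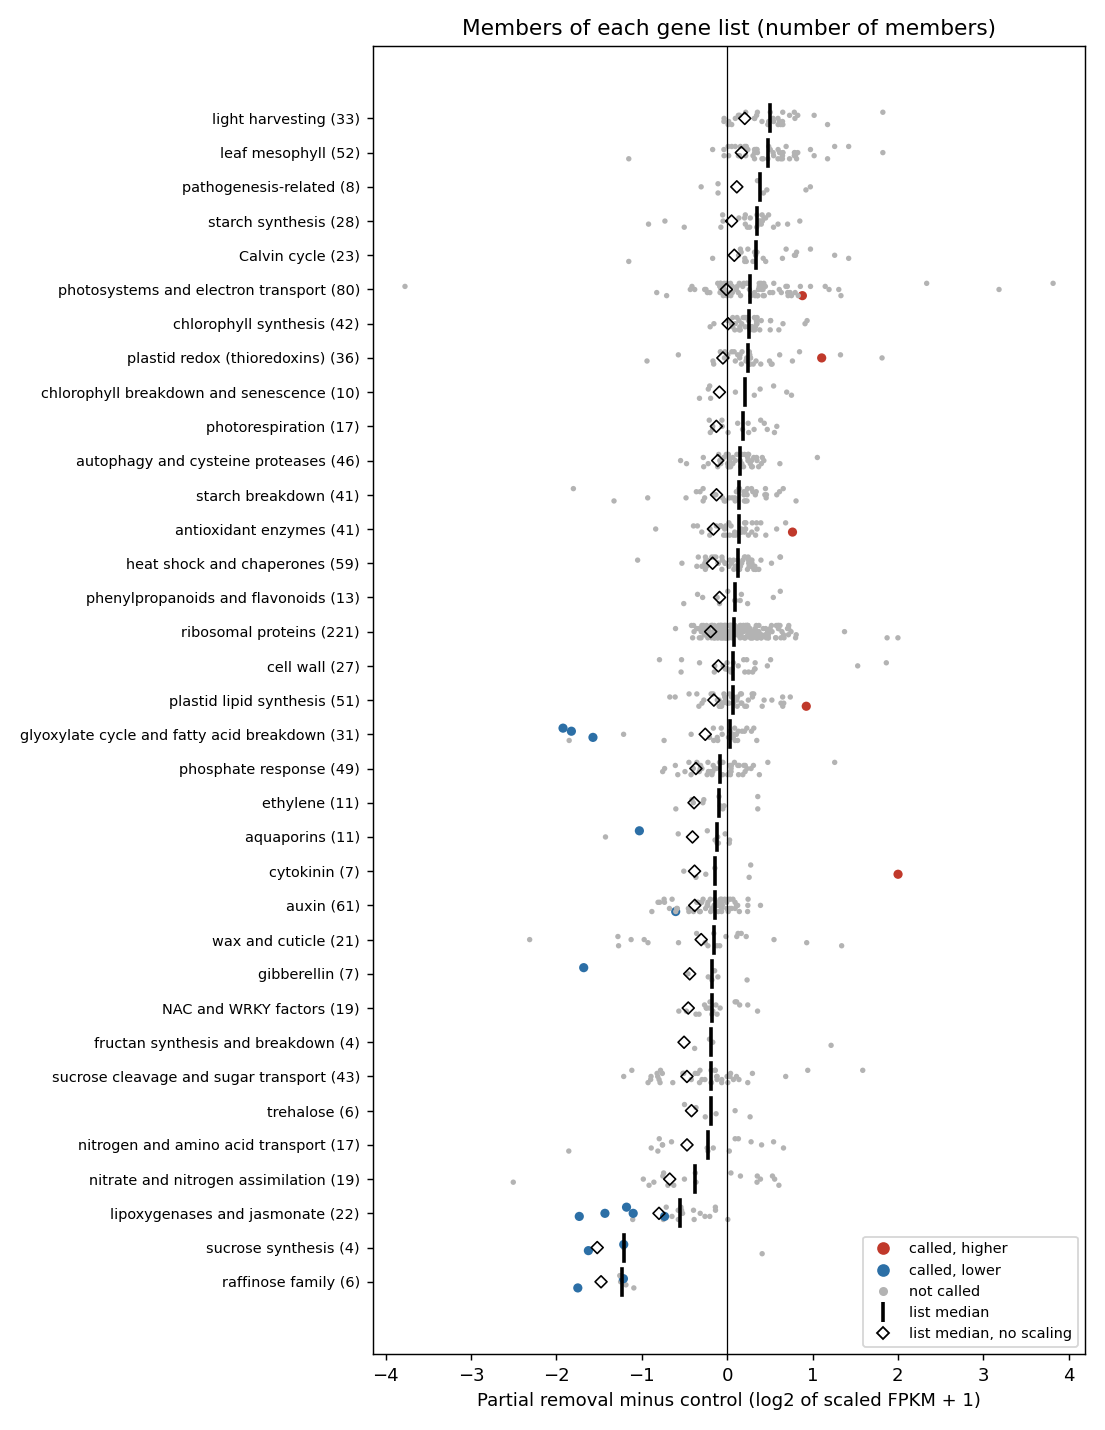
Log2 differences, partial removal minus control, of the loci in each gene list with at least 4 loci, with the number of loci in brackets. Red points were called higher and blue points lower, black bars are list medians and open diamonds the medians without scaling, which lie lower in every list. Raffinose, sucrose synthesis and lipoxygenase lists stand lowest and light harvesting stands highest.

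Organelle transcripts were among the largest rises. Of 9 named rRNA loci of plastid or mitochondrion, 4 were called higher and the other 5 also lay above 0. The locus rrn26-p (MSTRG.25) had 60.1, 64.0 and 113 after partial removal and 0.352, 0 and 0.892 in controls (log2 5.81 ± 0.33, adjusted p = 0.000382). The locus rrn18-2 (MSTRG.52) had 106, 102 and 101 after partial removal and 0, 0.851 and 3.02 in controls (log2 5.73 ± 0.90, adjusted p = 0.0187). The 16S rRNA (MSTRG.106) and 23S rRNA (MSTRG.107) averaged 11379 and 9391 after partial removal and 2187 and 1383 in controls. A plastid ndhB locus (AIG90486), which encodes a subunit of the NADH dehydrogenase-like complex, had 2.40, 1.63 and 2.62 after partial removal and 0.0738, 0.360 and 0.469 in controls (log2 1.31 ± 0.16, adjusted p = 0.00891). The ndhB locus entered the comparison only through the partial removal libraries. The libraries were of poly(A) RNA, the organelle rRNA share given above moved with these loci, and its part in the result was not tested. The calls of rrn18-2, 16S and 23S were lost without control library 1 or 2 or any partial removal library (adjusted p up to 0.0771, 0.161 and 0.0817), and those of rrn26-p and ndhB were kept throughout. Without the filter on low values the first 3 were lost, and 16S and 23S also with the 6 libraries alone, 16S with a pseudocount of 0.1 as well. With quantile normalization 16S (MSTRG.106) and 23S (MSTRG.107) had log2 differences of 0.06 each (adjusted p = 0.967 and 0.968). Quantile normalization gives all libraries the same set of values, so it can hide a rise at loci of the highest ranks.

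Among hormone genes, the DELLA protein RHT-1, a repressor of gibberellin responses, had a locus that fell strongly. MSTRG.42729 had 4.05, 4.23 and 2.59 after partial removal and 11.2, 15.0 and 14.9 in controls (log2 -1.68 ± 0.18, adjusted p = 0.00567), and the call was kept with each library left out. DELLA loci on 4AL (MSTRG.35523) and 4BS (MSTRG.40016) had log2 -0.46 and -0.15 with wide spread in controls and did not pass. A phosphoribohydrolase on 5BL that releases active cytokinin (MSTRG.49671) had 1.97, 2.71 and 4.82 after partial removal and was listed at 0 in all 3 controls (adjusted p = 0.00841). This locus entered the comparison only through the partial removal libraries. Its 3 relatives on group 3 had log2 values from -0.14 to 0.28 and did not pass. In the auxin list (61 loci), 46 loci lay below 0 and 1 was called lower, an auxin-responsive protein on 3B (MSTRG.26783) with 1.41 ± 0.206 after partial removal and 2.66 ± 0.271 in controls (SD, n = 3 each, log2 -0.60 ± 0.12, adjusted p = 0.0489). That call was lost with any 1 of the 6 libraries left out (adjusted p up to 0.182), in the 3 other fits, with quantile normalization, with scaling on named loci and with a pseudocount of 0.1. Abscisic acid (3 loci) and ethylene (11 loci) had no call.

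Outside the lists, OBERON 3, a PHD finger protein known from Arabidopsis meristems, was called lower on 4AS (MSTRG.37186, 2.28, 2.20 and 2.91 after partial removal against 5.10, 4.51 and 5.54 in controls, adjusted p = 0.0284). Its 4BL copy (MSTRG.37987) was called too (log2 -0.69 ± 0.12, adjusted p = 0.0314), and its 4DL copy (MSTRG.41319) had log2 -0.72 ± 0.17 and missed the threshold (adjusted p = 0.0904). A FRIGIDA-like protein on 5BL (MSTRG.49048) had 5.07, 6.09 and 3.66 after partial removal and 9.66, 9.70 and 12.2 in controls (log2 -0.97 ± 0.18, adjusted p = 0.0344). The clock gene LUX-A on 3AL (MSTRG.23030) had 4.23, 5.83 and 4.64 after partial removal and 9.32, 9.27 and 7.85 in controls (log2 -0.74 ± 0.15, adjusted p = 0.0446). These groups did not overlap, but the 3 genes lost their calls without control library 1 or 2 or any partial removal library, and OBERON 3 and the FRIGIDA-like protein also without control library 3 (adjusted p up to 0.16). All these calls were lost in the 3 other fits. NAC and WRKY factors, families with roles in leaf senescence, had no call among 19 loci.

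Of 1475 loci with a GO term for protein kinase activity, 24 were called lower and 2 higher (1.76% called, against 0.802% of all named loci). Of 722 with one for transmembrane transport, 14 were called lower and none higher (1.94%). For the GO term transport, 11 of 1181 loci were called lower and 1 higher (1.02%). A serine/threonine kinase on 4DL (MSTRG.41478) had 2.38, 3.64 and 3.25 after partial removal and 8.11, 9.87 and 10.1 in controls (log2 -1.35 ± 0.15, adjusted p = 0.00628). The receptor like kinase S.2 on 5AL (MSTRG.46126) had 2.28, 2.46 and 2.46 after partial removal and 6.83, 6.39 and 6.17 in controls (log2 -1.13 ± 0.10, adjusted p = 0.00432). In both, all controls exceeded 6 scaled FPKM and no partial removal library reached 4, and both calls were kept with each library left out. Cyclic nucleotide-gated channel 2 on 5AL (MSTRG.44131), a calcium channel of defence signalling in Arabidopsis, had 1.83, 1.75 and 1.02 after partial removal and 4.34, 4.02 and 6.67 in controls (log2 -1.24 ± 0.22, adjusted p = 0.0275).

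Molybdate transporter 2 was called lower in both of its loci, on 2BL (MSTRG.16127, 3.85 after partial removal and 9.96 in controls, adjusted p = 0.019) and on 2DL (MSTRG.20492, 2.42 after partial removal and 5.39 in controls, adjusted p = 0.024). An ion transport pair on group 1 that carries only GO terms fell further. The 1DL locus (MSTRG.7600) had 1.49, 0.635 and 0.678 after partial removal and 9.14, 8.69 and 11.9 in controls (log2 -2.51 ± 0.26, adjusted p = 0.00559). The 1BL locus (MSTRG.5541) had 1.32, 1.26 and 1.12 after partial removal and 9.70, 7.69 and 15.6 in controls (log2 -2.37 ± 0.21, adjusted p = 0.00444). Controls were at least 7.69 and partial removal libraries at most 1.49 in this pair, and both calls were kept with each library left out. Among 11 aquaporins, the tonoplast water channel TIP2-1 was called lower on 7DL (MSTRG.72331, 3.05 after partial removal and 7.30 in controls, adjusted p = 0.0374), while its 7AL (MSTRG.65403) and 7BL (MSTRG.68301) copies overlapped between groups. Amine oxidase (MSTRG.76202) had 3.03, 3.26 and 2.74 after partial removal and 6.05, 7.49 and 8.85 in controls (log2 -1.07 ± 0.14, adjusted p = 0.011). Channel 2, TIP2-1 and both molybdate transporters lost their calls without control library 1 or 2 or partial removal library 2 or 3, the first pair also without partial removal library 1 (adjusted p up to 0.103, 0.142, 0.0842 for 2BL and 0.102 for 2DL). Amine oxidase lost its call without control library 2 or partial removal library 3 (adjusted p up to 0.0531) and with the 6 libraries alone. Channel 2, TIP2-1 and the 2DL molybdate transporter were also lost in the 3 other fits, TIP2-1 with a pseudocount of 0.1, and the 2BL transporter without the filter on low values.

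The largest fall of any named locus came from a gene on 1DL with GO terms for a heme oxidoreductase (MSTRG.9131), which was listed at 0 in all 3 partial removal libraries and had 23.5, 22.9 and 36.6 in controls (adjusted p = 0.000109). In leaves after whole removal it had 8.27, 10.01 and 5.997. A locus on 2AS with no annotation (MSTRG.14168) had 16.4, 18.2 and 22.6 after partial removal and 0.0290, 0.0276 and 0.0249 in controls (log2 4.28 ± 0.20, adjusted p = 0.000109). Its level after whole removal was 18.8, 15.7 and 10.8. In all, 7 of the loci called lower were listed at 0 in every partial removal library, and 2 of those called higher in every control. Examples without annotation were MSTRG.19190 on 2DL with 2.30, 2.61 and 2.03 after partial removal and 0 in controls, and MSTRG.64573 on 7AL with 0 after partial removal and 1.31, 1.33 and 3.48 in controls. Loci listed at 0 throughout a group, and MSTRG.14168, entered the comparison only through the group where they are high. GTPase MSTRG.53567 on 5DL had 12.6, 14.9 and 16.6 after partial removal and 2.57, 1.59 and 0.859 in controls (log2 2.60 ± 0.35, adjusted p = 0.0109). A locus with a photosystem II GO term on 5DS (MSTRG.55328) had 26.2, 14.0 and 19.5 after partial removal and 2.09, 1.49 and 3.02 in controls (log2 2.69 ± 0.43, adjusted p = 0.0198). Whole groups of libraries separated at each of these loci. The call at MSTRG.53567 was lost without partial removal library 3, that at MSTRG.64573 without any 1 partial removal library, and that at MSTRG.55328 without control library 1 or 2 or partial removal library 1 or 3 (adjusted p up to 0.0526, 0.0761 and 0.0822). A pseudocount of 0.1 ended the first and second, and the fit of 6 libraries the second. No filter on low values ended the calls at MSTRG.64573 and MSTRG.55328.

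Other gene groups had no call or a single one. No locus was called among 221 ribosomal proteins, 59 heat shock proteins and chaperones, 46 autophagy genes and cysteine proteases, 10 genes of chlorophyll breakdown and senescence, 49 of the phosphate response, 27 of the cell wall, 21 of wax and cuticle, 17 of photorespiration, 13 of phenylpropanoids and 8 pathogenesis-related genes. The lists of plastid lipid synthesis (51 loci) and antioxidant enzymes (41 loci) had only the acyltransferase and the dismutase. Ribosomal proteins had a median log2 of 0.09, which turned to -0.19 without scaling and -0.03 with quantile normalization, with 17 loci higher and 1 lower at an unadjusted p of 0.05, against 5.07% and 6.52% of all named loci. Xyloglucan endotransglucosylase on 7DL (MSTRG.71926), an enzyme of wall loosening, had 49.0, 64.3 and 24.9 after partial removal and 12.3, 12.3 and 8.90 in controls but did not pass (adjusted p = 0.0841). A miss of the threshold does not show that these groups were the same in both kinds of leaf.

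Copies of a gene on the 3 genomes gave a look at how the calls hold within a family, though they can share reads. Exactly 1 locus on each of A, B and D of a chromosome group carried the same description in 979 cases, and in 61.4% of these all 3 lay on the same side of 0. A called copy was present in 11 of them, with 1 call in 7, 2 in 3 and 3 in the lipoxygenases of group 2. All 17 uncalled copies in these 11 sets lay on the side of their called partner. Calls were spread over the genomes, with 15 higher and 80 lower among 11262 loci of A, 15 and 68 among 11509 of B, and 21 and 67 among 11308 of D. By chromosome the called share lay between 0.464% on 7B and 1.23% on 1D.

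Leaves after whole removal were set beside those after partial removal. Whole against partial removal differed at 5995 of the 35649 named loci (16.8%), with 2763 higher (7.75%) and 3232 lower (9.07%) after whole removal, a count that fell to 3197 without partial removal library 2. This comparison shares the partial removal libraries with the main one, so the values are given side by side. Phosphoenolpyruvate carboxylase on 3AS (MSTRG.24984) had group means of 72.6 in controls, 20.7 after partial and 5.22 after whole removal. The trehalose locus on 6BL (MSTRG.58468) had 12.7 in controls, 4.91 after partial and 1.12 after whole removal. Malate synthase on 2BL (MSTRG.16081) had 8.19 in controls, 2.19 after partial and 0.145 after whole removal. Each of these stepped down further with the whole spike gone (whole minus partial log2 -1.81 ± 0.17, -1.48 ± 0.17 and -1.41 ± 0.28, adjusted p = 0.000415, 0.0011 and 0.0107). They are examples picked among the calls with their values known, and the share of all calls that stepped down is not given here. Their adjusted p-values are therefore not separate support for a graded response.

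Lipoxygenase on 2BL (MSTRG.16752) and the kinase on 4DL (MSTRG.41478) stood near their partial removal level after whole removal, with 0.566 and 2.35 after whole removal against 0.621 and 3.09 after partial removal (log2 -0.05 and -0.28, adjusted p = 0.849 and 0.229). In contrast, DELLA RHT-1 (MSTRG.42729) had 13.7 in controls, 3.62 after partial and 8.29 after whole removal. Long-chain-alcohol oxidase on 1AL (MSTRG.274) had 11.1 in controls, 2.32 after partial and 5.82 after whole removal, and arginine decarboxylase on 7DS (MSTRG.74430), an enzyme of polyamine synthesis, had 2.05 in controls, 0.275 after partial and 1.92 after whole removal. At these 3 loci the leaves with the whole spike removed were higher than those with 0.5 of it removed (log2 1.03, 1.09 and 1.18, adjusted p = 0.00595, 0.0146 and 0.00258). The 1BL copy of the oxidase (MSTRG.3732), also called lower, stayed low, with 12.6 in controls, 2.84 after partial and 3.32 after whole removal (whole minus partial log2 0.12, adjusted p = 0.766). Thioredoxin F (MSTRG.26631) had 52.2 in controls, 115 after partial and 64.6 after whole removal (log2 -0.82, adjusted p = 0.0373). All loci of this paragraph were picked among calls that rest on the same partial removal libraries. That choice favours a return towards controls after whole removal, so these adjusted p-values are not separate support. Arginine decarboxylase entered the comparison only through the controls.

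**Figure D4:**
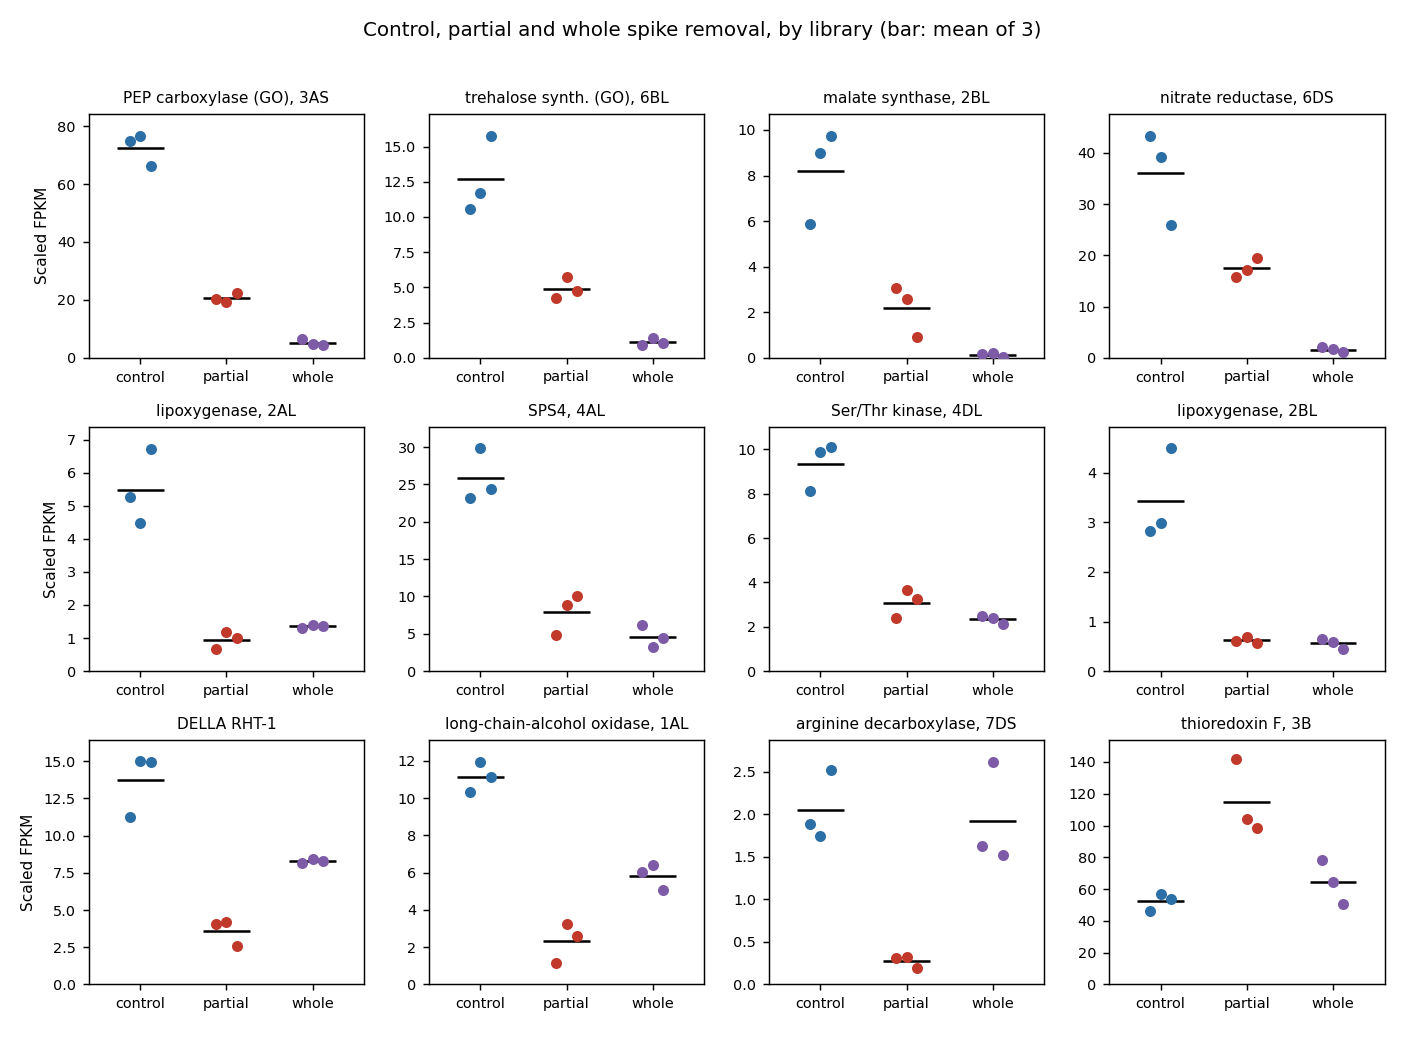
Scaled FPKM of each library (points) and group mean (bar) in leaves of control plants, after partial and after whole removal of the spike. The top row falls with each step and the middle row is low after both treatments. In the bottom row the mean after whole removal lies between those of the other 2 groups.

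Grains of the same partial treatment gave a contrast of tissues. Over 26061 named loci measured in both, the leaf effect of partial removal differed from the grain effect at 22 (0.0844%), 5 higher (0.0192%) and 17 lower (0.0652%) in leaf. In grain itself, 1 of these loci (0.00384%) differed between partial removal and control. Without control leaf library 3 the count of 22 became 66, and without grain partial removal library 2 it became 9.

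The number of calls depended on the settings. Fitting the 6 libraries alone gave 30 higher and 88 lower, and testing the named loci alone gave 25 and 105. None of the 286 loci changed sign under any of 16 settings, and 59 (10 higher, 49 lower) were called under every planned setting except a filter on mean FPKM, which left 81 of the 286 in the test.

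**Figure D5:**
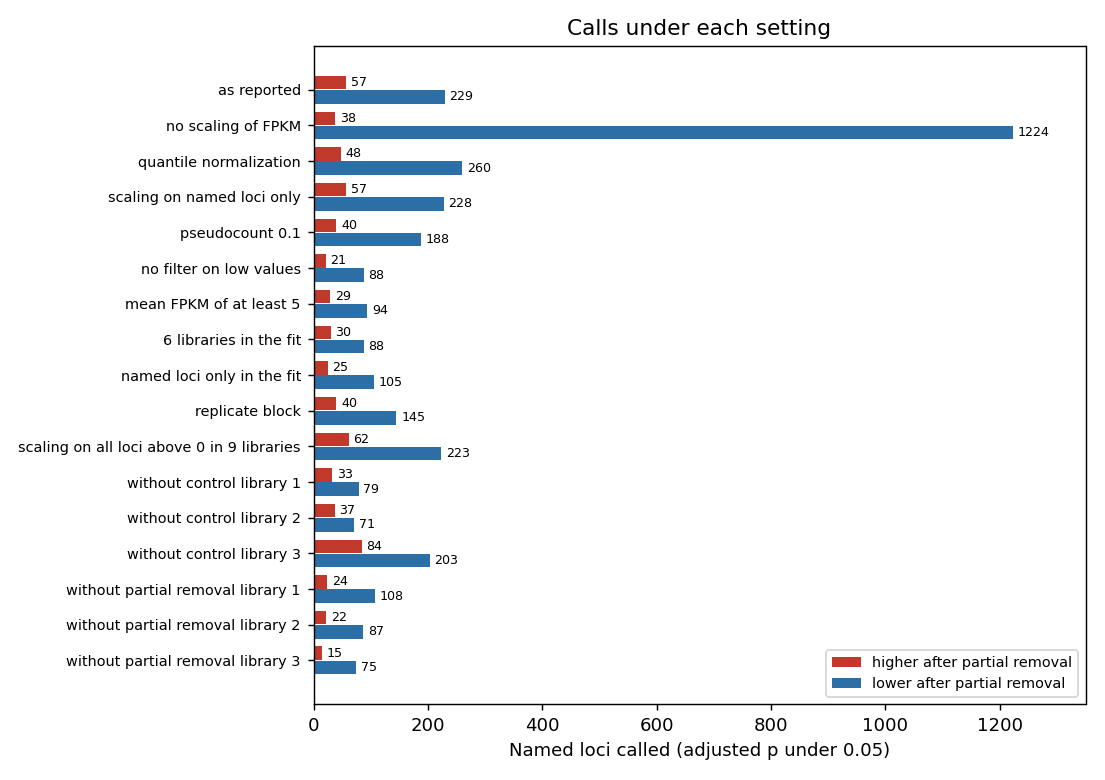
Bars give the number of named loci called higher (red) and lower (blue) after partial removal under each setting, with an adjusted p of 0.05. The lower calls outnumber the higher calls in every setting, from 71 without control library 2 to 1224 without scaling.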

How the data were processed

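The deposited table gave gene FPKM, which the authors computed before deposition with HISAT, StringTie and edgeR, per the submitters' processing notes, which name no versions. Genome build and strand are not given in the sources used here. Read counts were not used, so depth is unknown. Relative depth from values under an FPKM of 0.1 lay between 0.830 and 1.06 of control leaf library 1. FPKM was scaled by the median ratio over the 46922 tested loci above 0 in all 9 leaf libraries, and log2(scaled FPKM + 1) was fitted with limma 3.58.1 in R 4.3.3, with 1 mean per group of 9 leaf libraries, a variance trend and Benjamini-Hochberg adjustment over 48696 loci. Loci with an FPKM of at least 1 in at least 3 of 9 leaf libraries were tested. On data simulated for partial removal against control in leaf over 48696 loci, 44 of 100 changes of 2-fold and 82 of 100 of 4-fold were recovered. Fold here is the ratio of scaled FPKM + 1, so the changes in FPKM itself were larger. Calls among the unchanged loci are not given here. The changes were placed only in loci with a mean log2(scaled FPKM + 1) above 2, so these shares do not cover lower loci. The leaf and grain effects were compared in a separate fit of 12 libraries.

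The 37 gene lists are text patterns on descriptions. Members, lists and tests were chosen with earlier results of these data known. Loci were named by a rule. It took the 12 largest rises and falls among called loci with a description, no overlap and a mean of at least 5 in the higher group, and up to 3 calls per list and direction or the smallest p. It added loci listed at 0, the 4 most abundant described calls per direction, copies with the same description, and the 6 largest rises and falls with only GO terms. The families defined by GO terms, OBERON 3, LUX-A, arginine decarboxylase, ndhB, the rRNAs and the unannotated MSTRG.14168 were chosen after their values were seen. Other alternatives were quantile normalization, other scalings, a pseudocount of 0.1, other filters, a replicate block and each library left out.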

Additional observations from a re-analysis of the deposited data

Results flagged for a closer look

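The effect of partial removal differed between leaf and grain at 9 of the loci named in the text. The test was of leaf effect minus grain effect (limma, Benjamini-Hochberg adjustment over all loci tested in both tissues). All 9 were already called in leaf, and the test uses the same leaf libraries. Its p-values are therefore not separate evidence of a difference between tissues. Lipoxygenase on 2AL (MSTRG.11562) had a difference of -1.90 (adjusted p = 0.00717). In grain its mean was 1.54 after partial removal and 1.25 in controls. Long-chain-alcohol oxidase had -2.25 at 1AL (MSTRG.274, adjusted p = 0.0366) and -1.99 at 1BL (MSTRG.3732, adjusted p = 0.0074). The trehalose locus on 6BL (MSTRG.58468) had -1.52 (adjusted p = 0.0366), galactosyltransferase 6 (MSTRG.77407) had -1.35 (adjusted p = 0.0495), and receptor like kinase S.2 (MSTRG.46126) had -1.19 (adjusted p = 0.0243). A locus on 1DL with a GO term for RNA processing (MSTRG.8095) had -1.98 (adjusted p = 0.04). Higher in leaf were rrn26-p (MSTRG.25) with 6.28 and the unannotated locus on 2AS (MSTRG.14168) with 5.02 (adjusted p = 0.00345 each). In grain, rrn26-p averaged 214 after partial removal and 302 in controls.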

How the results depend on the processing

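Named loci called after partial removal numbered 286 (57 higher, 229 lower). Without scaling 1262 were called (1224 lower), and 109 (21 higher, 88 lower) without the filter on low values. A mean FPKM of at least 5 gave 123 (29 higher, 94 lower), 6 libraries in the fit 118 (30 higher, 88 lower), and named loci only 130 (25 higher, 105 lower). Leaving out single libraries gave 90 to 287 calls, 15 to 84 higher and 71 to 203 lower, and moved the 5995 loci of whole minus partial removal to between 3197 and 5353. The 22 loci of leaf minus grain became 3012 without scaling, 51 with quantile normalization, 12 with a pseudocount of 0.1 and 9 to 66 with single libraries left out. The replicate numbers were not shown to pair samples: residuals of same-numbered partial removal and control libraries correlated at 0.0438, 0.0524 and -0.0946. With a replicate block, 185 loci were called (145 lower), and 7 in leaf minus grain. The gene by gene lists of lost calls above leave this setting out. It ended those of both sucrose-phosphate synthase 4 loci, malate synthase, thioredoxin F, Psb28, the acyltransferase and channel 2. Lost too were the FRIGIDA-like protein, LUX-A, the auxin-responsive protein, 3B phosphoenolpyruvate carboxylase and 16S and 23S rRNA. So were, among others, MSTRG.55470, MSTRG.30555 and MSTRG.55328. Named loci kept side and threshold in 1107 of 1338 tries, passed anew in 22 and fell short in 209, and none that passed under either setting changed sign. The causes were not tested. Scaling on all loci above 0 in 9 libraries, tested or not, was chosen after seeing the data and gave 285 calls. Depth is unknown, so differences at levels near 1 FPKM rest on the spread between 3 libraries.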
